A study of Mus musculus with 33 samples.

Results

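The genes of cholesterol synthesis and sterol regulation were followed in epithelial cells of mouse mammary tumors and tumor-free mammary glands. The list held 29 genes, all of which were found by symbol among the 55487 gene rows of the count table and passed the minimum of 10 reads over all libraries. Each library was RNAseq of total RNA, depleted of ribosomal RNA, from GFP+ cells of 1 mouse. Tumor mice carried MMTV-PyMT, in which the MMTV promoter drives the polyoma middle T oncogene in mammary epithelium. Tumor and tumor-free mice alike carried MMTV-Cre and the ROSA mT/mG reporter, so that epithelial cells that had expressed Cre turned from red to green. In the WT mice the gene of parathyroid hormone-related protein was intact (Pthrp wt/wt), and in the KO mice it was floxed (Pthrp flox/flox) and deleted where Cre was expressed. The MMTV-PyMT and MMTV-Cre lines were FVB, and the floxed allele came from C57BL/6 mice crossed back to FVB. WT tumors came from weeks 6, 8 and 10 (3 mice each) and week 12 (1 mouse), and KO tumors from weeks 8, 10 and 12 (3 mice each). WT glands came from weeks 6, 8, 10 and 12 and KO glands from weeks 8, 10 and 12, with 2 mice each. The study set hyperplasia at week 6 in WT and week 8 in KO tumors, adenoma at weeks 8 and 10, and carcinoma at weeks 10 and 12, so genotypes matched by stage differ in age. The cells were kept in serum-containing medium before the sort, and every level below is that of cultured cells.

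Cholesterol is built from acetyl-CoA through mevalonate and isoprenoid units to squalene, and from squalene through lanosterol to cholesterol. When sterol in the endoplasmic reticulum is low, SCAP carries the transcription factor SREBP2, encoded by Srebf2, to the Golgi for cleavage, and its released part raises the genes of synthesis. When sterol is plentiful, INSIG proteins hold SCAP back, and oxysterols activate the liver X receptors (LXR), which raise genes of sterol efflux such as Abca1. The 29 genes were grouped as 8 genes from acetyl-CoA to squalene, 10 genes from squalene to cholesterol, 5 genes of SREBP sensing and sterol transport, and 6 genes of oxysterol, LXR and efflux.

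The libraries held between 28419983 and 130981596 reads in genes, and each synthesis gene had at least 340 reads in every library, while Ch25h had as few as 1. GFP+ cells were epithelial by their markers: the summed level of 10 luminal markers was 5962 to 12028 CPM (reads of a gene relative to the scaled total of its library) in WT tumors and 8880 to 13390 CPM in WT glands. Summed adipocyte markers were 11.8 to 29.1 CPM over all libraries, mostly Lipe (group medians of 14.2 to 15.5 CPM), with Adipoq at no more than 0.096 CPM. Of these 10 markers, Fabp4 and Lep were called lower in WT tumors (9.53% of all genes). Summed endothelial markers were 2.73 to 21.8 CPM in WT tumors against 10.4 to 40.0 CPM in WT glands, with 7 of 10 called lower (9.53% of all genes), and 2.76 to 10.4 CPM in KO tumors against 5.32 to 37.3 CPM in KO glands, with 2 called lower (5.44% of all genes). Summed lymphocyte markers reached at most 1.19 CPM, except for up to 17.5 CPM among KO glands. Of these, 1 of 10 was called lower in tumors of each genotype, near the share of all genes (9.53% in WT, 5.44% in KO). The libraries of tumors and glands differed in the markers of epithelial cell types. The 10 basal or myoepithelial markers were all called lower in tumors of both genotypes (9.53% of all genes in WT, 5.44% in KO). Their summed levels were 1006 to 3694 CPM in WT tumors against 5311 to 20765 CPM in WT glands. In KO mice they were 1612 to 5420 CPM in tumors against 5561 to 19725 CPM in glands. Summed fibroblast markers were 124 to 788 CPM in WT tumors against 911 to 4360 CPM in WT glands, and 83.8 to 1104 CPM in KO tumors against 445 to 3685 CPM in KO glands, and most of the sum was Postn (medians of 222 and 2041 CPM in WT, 284 and 2282 CPM in KO tumors and glands). Of the 10 fibroblast markers, 6 were called lower in WT and 2 in KO tumors (9.53% and 5.44% of all genes) and 0 higher. The medians of Pdgfra (8.50 against 4.01 CPM in WT, 8.40 against 5.02 CPM in KO) and Col3a1 (5.11 against 0.96 CPM, 7.90 against 0.22 CPM) were above those of glands without a call. The WT gland replicate 2 of week 8 stood apart, with Col1a1 at 143, Col1a2 at 172, Col3a1 at 305 and Dcn at 77.7 CPM against WT gland medians of 9.66, 9.80, 0.96 and 1.94 CPM. The part of these differences in the results below was not tested, and in such bulk samples fewer cells of a type and less RNA per cell cannot be told apart. Ribosomal RNA took at most 0.447% of reads in WT libraries, but a median of 0.952% (up to 12.0%) in KO tumors and 6.2% (up to 18.8%) in KO glands. Pthlh, which encodes the deleted protein, was at 1.35 to 2.29 CPM in KO tumors and at 1.46 to 6.67 CPM in WT tumors, and in glands the ranges were 2.79 to 8.52 CPM in KO and 2.93 to 7.72 CPM in WT. A count over the whole gene does not check a deletion of part of it. The study reports that its KO samples had no reads at the floxed exon of Pthlh.

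Most genes of cholesterol synthesis were lower in tumors than in tumor-free glands of the same age and genotype, in WT and in KO mice. A gene was called when its fold change was over 1.5 and its adjusted p under 0.1 in edgeR's quasi-likelihood test over 36527 genes. On average over weeks 6, 8 and 10, 14 of the 29 genes were called in WT mice, 10 lower and 4 higher in tumors, where 9.53% of all genes tested were called lower and 6.21% higher (15.7% in all). On average over weeks 8, 10 and 12, 18 of 29 were called in KO mice, 15 lower and 3 higher, where 5.44% of all genes were called lower and 5.16% higher (10.6% in all). The median log2 difference of the 29 genes was -0.34 in WT and -0.70 in KO mice, against 0.03 and 0.09 over all genes tested. Every gene called lower in these averages belonged to the synthesis enzymes. With no fold threshold, 19 genes were called in WT and 22 in KO mice, against 23.1% and 17.5% of all genes. The WT count fell to 7, 8 and 9 genes without the WT gland replicate 1 of week 10, of week 8 and of week 6 in turn, while the KO count stayed between 16 and 20 whichever library was left out. The share of all genes called in these fits was 12.5% to 16% in WT and 8.84% to 11.2% in KO mice.

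**Figure D1:**
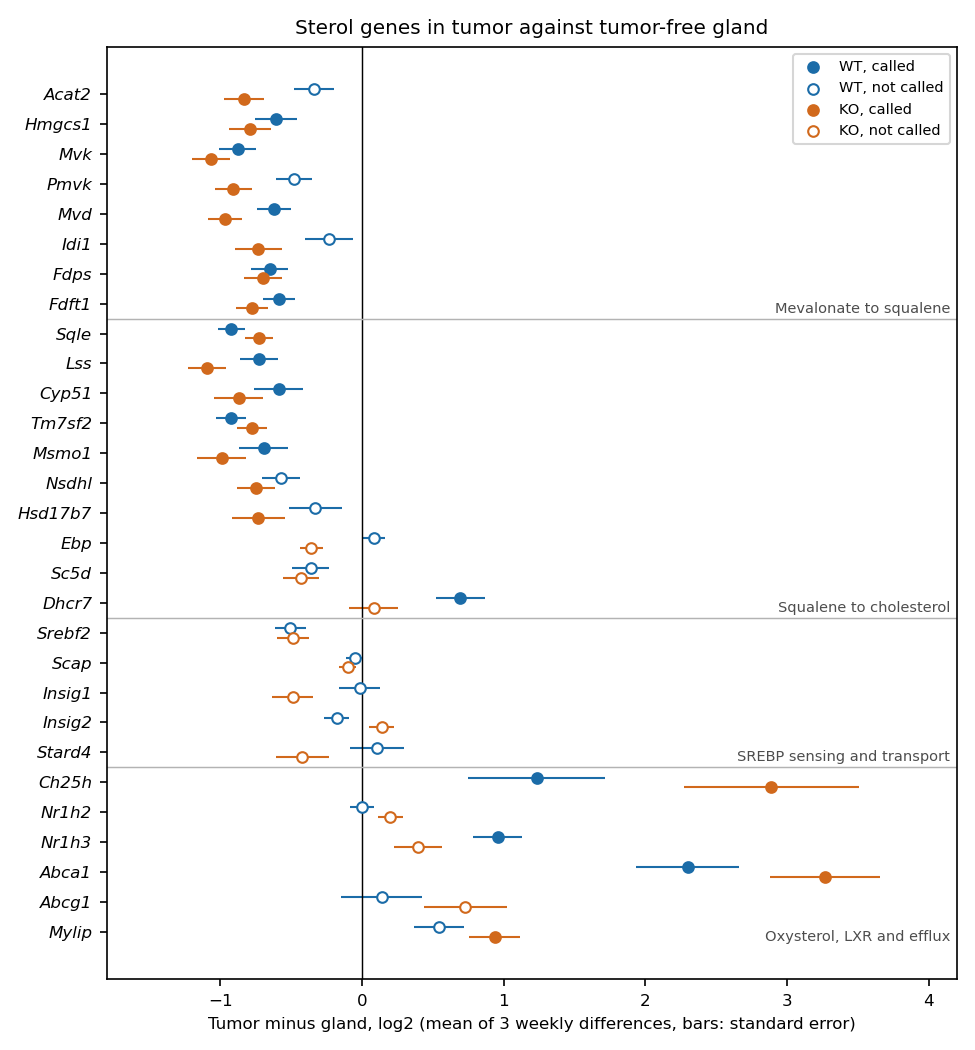
Difference between tumor and tumor-free gland for the 29 genes, as the mean of 3 weekly log2 differences with its standard error, in WT (blue) and KO (orange) mice. Filled points were called. The enzymes lie mostly to the left of 0, and Abca1, at 2.30 in WT and 3.27 in KO mice, lies farthest to the right in both.

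The first 8 enzymes, from acetyl-CoA to squalene, had a median log2 difference of -0.60 in WT and -0.81 in KO mice, and all 8 were negative in both. In KO mice all 8 were called lower (5.44% of all genes). In WT mice 5 of 8 were called lower, namely Hmgcs1, Mvk, Mvd, Fdps and Fdft1 (9.53% of all genes). Hmgcs1, which encodes the enzyme that makes HMG-CoA in the cytosol, had a lowest, median and highest level of 122, 235 and 283 CPM in WT tumors against 232, 395 and 514 CPM in WT glands, and of 189, 243 and 351 CPM in KO tumors against 300, 434 and 520 CPM in KO glands. The ranges overlapped over all ages, but at each age every tumor lay below both glands. The log2 difference of Hmgcs1 was -0.61 (SE 0.15, adjusted p = 0.0044) in WT mice and -0.79 (SE 0.15, adjusted p = 0.00041) in KO mice. The WT difference lay near the fold threshold, and its call was lost in 6 of 23 alternatives, among them the replicate block and 5 fits without 1 library. Hmgcs1 had the highest level per kilobase of exon among the enzymes, with a median of 52.7 CPM per kilobase in tumors and 88.9 in glands.

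Promoters were read where a match to a known motif could be shown beside a gene that changed. The 250 bases before the start of Hmgcs1 (RefSeq, GRCm38.p6, chr13:119690101-119690350, plus strand) held the letters TCACCCCAC, a sterol regulatory element of the form TCACNCCAC at which SREBP can bind, 137 bases before the start, and 3 CCAAT boxes, read here as ATTGG from the other strand, at 237, 176 and 45 bases before it. Capitals mark these motifs.
Hmgcs1: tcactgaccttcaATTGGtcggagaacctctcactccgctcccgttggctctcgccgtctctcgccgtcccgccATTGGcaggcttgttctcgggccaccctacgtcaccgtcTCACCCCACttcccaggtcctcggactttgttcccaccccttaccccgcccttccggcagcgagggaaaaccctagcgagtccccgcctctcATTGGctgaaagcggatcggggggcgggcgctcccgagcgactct
Of the 29 genes, 24 had a promoter of 250 bases before and 50 bases after the start in the RefSeq table. The form TCACNCCAC, searched on both strands, was in 1 of the 24 promoters (Hmgcs1) and in 1.44% of all genes. CCAAT, on either strand, was in 18 of 24 (75.0%) and in 41.1% of all genes, and CACGTG was in 6 of 24 (25.0%) and in 8.09%. These matches describe letters in a short window and show no binding.

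Among the mevalonate enzymes, Mvk (mevalonate kinase) had the largest difference in WT mice, with 11.3, 18.2 and 25.6 CPM (lowest, median, highest) in WT tumors against 25.2, 36.7 and 47.0 CPM in WT glands, and 14.9, 19.5 and 24.1 CPM in KO tumors against 22.3, 44.3 and 51.5 CPM in KO glands. Its log2 difference was -0.88 (SE 0.13, adjusted p = 2.2e-05) in WT and -1.06 (SE 0.13, adjusted p = 2.6e-06) in KO mice. Mvd, which makes isopentenyl diphosphate, was at 18.1, 21.9 and 26.9 CPM in WT tumors against 21.9, 38.4 and 61.1 CPM in WT glands, and at 18.9, 20.9 and 29.1 CPM in KO tumors against 22.7, 45.5 and 60.8 CPM in KO glands. The lowest gland of each genotype reached into the tumor range, and the log2 differences were -0.62 and -0.97. Pmvk, the kinase between them, was called only in KO mice at -0.91 (adjusted p = 1.4e-05), with 22.0, 24.9 and 31.1 CPM in KO tumors against 22.8, 54.0 and 65.8 CPM in KO glands. In WT mice its difference of -0.48 (adjusted p = 0.0096) lay under the fold threshold, with 20.3, 28.8 and 33.5 CPM in tumors against 25.1, 44.3 and 60.9 CPM in glands.

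Farther along the isoprenoid steps, Fdps (farnesyl diphosphate synthase) and Fdft1 (squalene synthase, the first step committed to sterols) were called lower in both genotypes. Fdps was at 47.0, 84.7 and 110 CPM in WT tumors against 87.2, 140 and 182 CPM in WT glands, and at 67.9, 84.8 and 108 CPM in KO tumors against 80.9, 136 and 183 CPM in KO glands. Fdft1 was at 73.5, 114 and 156 CPM in WT tumors against 145, 186 and 270 CPM in WT glands, and at 92.4, 112 and 155 CPM in KO tumors against 120, 195 and 273 CPM in KO glands. Both differed by similar amounts in the genotypes, -0.65 and -0.70 for Fdps and -0.59 and -0.77 for Fdft1 on the log2 scale. Acat2, the cytosolic thiolase that opens the pathway, and Idi1, the isomerase of isopentenyl diphosphate, passed only in KO mice. Acat2 was at 45.9, 54.1 and 64.2 CPM in KO tumors against 49.4, 103 and 143 CPM in KO glands (log2 difference -0.83), and at 39.6, 55.5 and 60.7 CPM in WT tumors against 37.2, 76.7 and 124 CPM in WT glands (-0.34). Idi1 was at 33.6, 36.9 and 63.3 CPM in KO tumors against 45.1, 73.8 and 93.3 CPM in KO glands (-0.73), and at 16.7, 43.0 and 59.4 CPM in WT tumors against 32.3, 55.3 and 102 CPM in WT glands (-0.23, adjusted p = 0.40). A call in KO and not in WT mice does not show that the genotypes differ, and the test of that difference is given further on.

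Of the 10 genes from squalene to cholesterol, 7 were called lower in KO mice (5.44% of all genes). In WT mice 5 were called lower (9.53%) and 1 higher (6.21%). The median log2 difference of the 10 was -0.74 in KO and -0.58 in WT mice. Sqle, squalene epoxidase and a control point of the pathway, separated WT tumors from WT glands at every age: the tumors were at 92.7, 147 and 199 CPM and the glands at 256, 269 and 349 CPM. In KO mice the tumors were at 123, 141 and 213 CPM and the glands at 182, 233 and 352 CPM. The log2 difference of Sqle was -0.92 (SE 0.10, adjusted p = 8.2e-08) in WT mice, which was the smallest adjusted p of the 29 genes there, and -0.73 (SE 0.10, adjusted p = 5.2e-06) in KO mice. Tm7sf2, a sterol C14 reductase, separated the WT groups too, at 8.78, 13.2 and 17.5 CPM in tumors against 19.9, 25.1 and 36.8 CPM in glands. In KO mice it was at 10.4, 12.1 and 16.1 CPM in tumors against 14.0, 21.9 and 32.6 CPM in glands. Its log2 differences were -0.93 and -0.77. Over all ages pooled, Sqle, Tm7sf2 and Srebf2 were the 3 of 29 genes whose WT tumors all lay below every WT gland, as did 2.25% of all genes. In KO mice 0 of 29 genes had every tumor below every gland, against 1.44% of all genes.

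**Figure D2:**
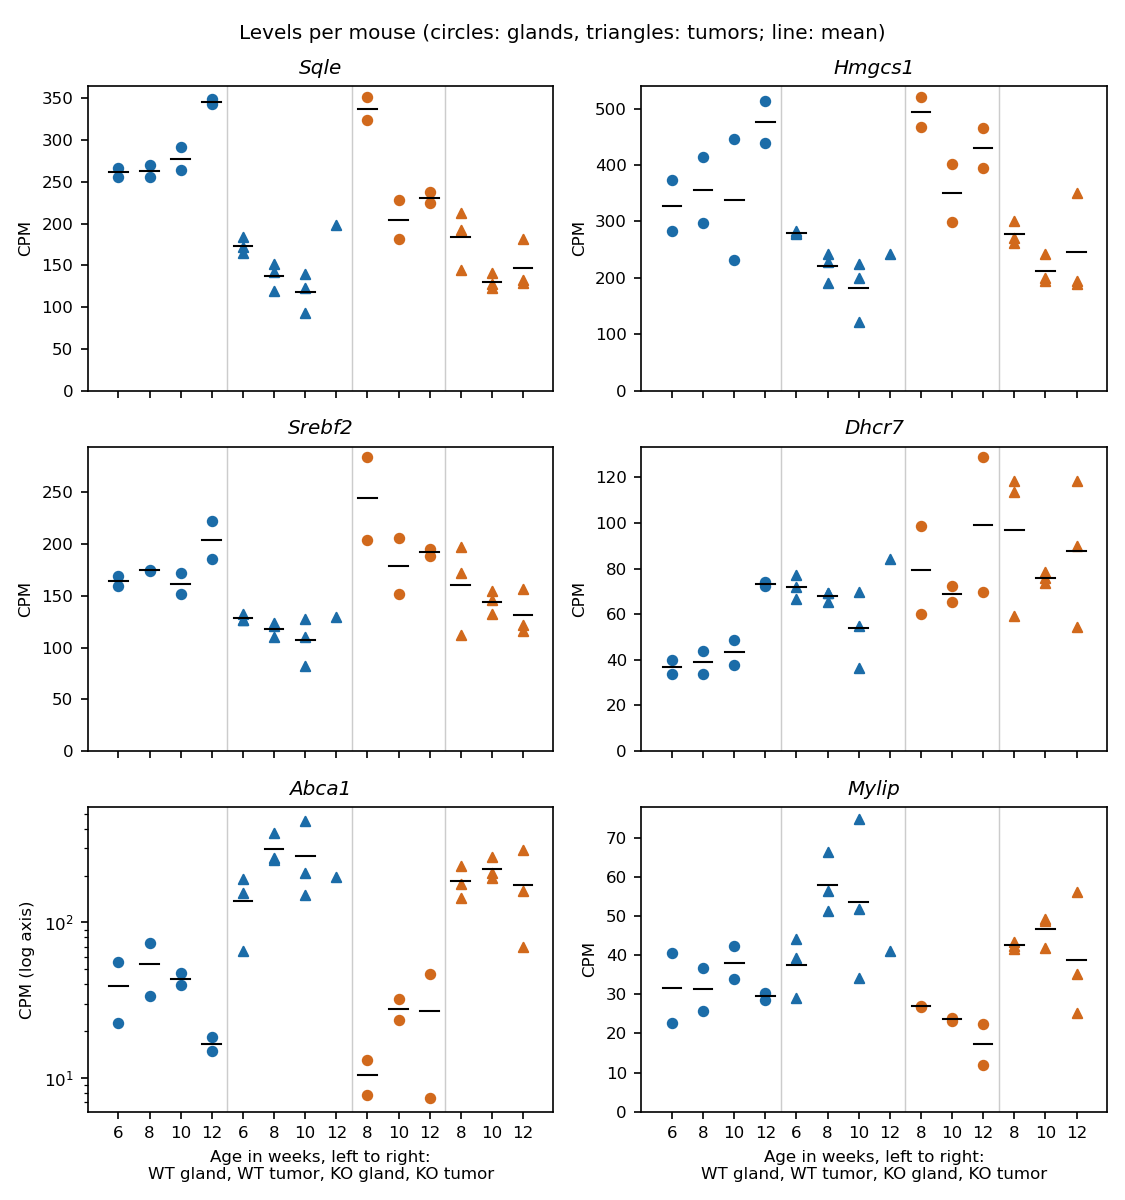
Level of 6 genes in CPM in each of the 33 mice, by genotype (WT blue, KO orange), tissue (circles glands, triangles tumors) and age in weeks, with the mean of each condition as a line. Sqle and Srebf2 have lower means in tumors than in glands at each age, Dhcr7 is low in WT glands of weeks 6 to 10, and Abca1, on a log axis, is higher in every tumor than in both glands of its age.

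Lss, which closes the ring to lanosterol, had the largest drop among the enzymes in KO mice. It was at 54.1, 71.9 and 119 CPM in KO tumors against 82.1, 169 and 252 CPM in KO glands, and at 48.9, 73.0 and 97.2 CPM in WT tumors against 77.5, 124 and 249 CPM in WT glands. Its log2 difference was -1.09 (SE 0.13, adjusted p = 2.2e-06) in KO and -0.73 (SE 0.13, adjusted p = 0.00021) in WT mice. The next demethylation steps moved the same way: Cyp51, the lanosterol 14-alpha demethylase, differed by -0.59 in WT and -0.87 in KO mice, and Msmo1, the C4 methylsterol oxidase, by -0.69 and -0.99. The WT calls of Fdft1 and Cyp51 lay near the fold threshold and were lost in 10 and 11 of 23 alternatives. Cyp51 was at 75.5, 180 and 238 CPM in WT tumors against 170, 306 and 435 CPM in WT glands, and at 124, 185 and 266 CPM in KO tumors against 184, 337 and 481 CPM in KO glands. Msmo1 was at 56.6, 130 and 181 CPM in WT tumors against 134, 232 and 316 CPM in WT glands, and at 86.3, 131 and 178 CPM in KO tumors against 134, 253 and 369 CPM in KO glands. The other two enzymes of C4 demethylation, Nsdhl and Hsd17b7, were called in KO mice only. Nsdhl was at 38.3, 50.4 and 72.2 CPM in KO tumors against 48.3, 91.9 and 116 CPM in KO glands (-0.75), and at 30.9, 45.4 and 57.2 CPM in WT tumors against 43.4, 75.1 and 102 CPM in WT glands, where -0.57 fell just short of the fold threshold. Hsd17b7 was at 41.5, 60.9 and 82.7 CPM in KO tumors against 58.6, 99.4 and 120 CPM in KO glands (-0.73), and at 23.4, 55.7 and 75.2 CPM in WT tumors against 47.1, 84.2 and 107 CPM in WT glands (-0.33, adjusted p = 0.26).

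The last 3 steps of the pathway were not called lower. Ebp, the sterol isomerase, ranged from 37.2 to 70.7 CPM over all libraries and was not called, its largest average difference being -0.36 in KO mice. Sc5d, the lathosterol oxidase, ranged from 72.1 to 196 CPM, with -0.36 in WT and -0.43 in KO mice, neither called. Dhcr7, the reductase that makes cholesterol from its 7-dehydro precursor, was higher in WT tumors, at 36.5, 69.2 and 84.2 CPM against 34.0, 41.8 and 74.0 CPM in WT glands (log2 difference 0.69, SE 0.17, adjusted p = 0.0052). In KO mice the tumors, at 54.6, 78.4 and 118 CPM, and the glands, at 60.1, 71.0 and 129 CPM, covered the same range (0.08, with a 95% interval of -0.25 to 0.42). With the ribosomal RNA share as a covariate the WT difference of Dhcr7 was 0.55 (adjusted p = 0.0098), just under the fold threshold, so the call was lost.

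None of the 5 genes of sterol sensing and transport was called in either average. Srebf2 came closest. WT tumors were at 82.6, 125 and 133 CPM, below all WT glands at 152, 173 and 223 CPM, and KO tumors were at 112, 147 and 197 CPM against 152, 200 and 284 CPM in KO glands. Its log2 differences of -0.51 (adjusted p = 0.0016) in WT and -0.49 (adjusted p = 0.0030) in KO mice lay under the fold threshold. At WT week 10 alone it was called lower (-0.60, adjusted p = 0.078), a call that was lost in 6 of 13 alternatives, among them 4 of the 5 fits without 1 library. Scap, the escort of SREBP2, ranged from 102 to 134 CPM over all libraries, with differences of -0.05 and -0.10. Insig1, itself a target of SREBP2, ranged from 31.0 to 132 CPM and differed by -0.02 in WT and -0.49 (adjusted p = 0.022) in KO mice, and Insig2 ranged from 20.1 to 38.3 CPM and differed by -0.18 and 0.14. Stard4, a carrier of sterol between membranes, ranged from 11.3 to 53.8 CPM and differed by 0.11 and -0.42.

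Of the 6 genes of oxysterol response and efflux, 3 were called higher in tumors in each average (6.21% of all genes in WT, 5.16% in KO) and 0 lower. These were Abca1, Ch25h and Nr1h3 in WT and Abca1, Ch25h and Mylip in KO mice. Abca1, the pump that loads cholesterol onto apolipoproteins outside the cell, was at 65.1, 202 and 450 CPM in WT tumors against 15.0, 36.7 and 74.1 CPM in WT glands, and at 70.0, 193 and 291 CPM in KO tumors against 7.44, 18.2 and 46.6 CPM in KO glands. Every KO tumor lay above every KO gland, as for 1.99% of all genes, while 1 WT tumor of week 6 reached into the WT gland range. Tumors held 4.92 times the gland level in WT mice (log2 difference 2.30, SE 0.36, adjusted p = 3.6e-05) and 9.63 times in KO mice (3.27, SE 0.39, adjusted p = 1.2e-06). Over the alternatives the KO difference ran from 3.03 to 3.90 on the log2 scale, the highest without the KO gland replicate 1 of week 12, and at KO week 12 alone it was 2.67 and ran from 1.94 to 4.55 without 1 or the other gland. Macrophages also make Abca1, so their markers were set beside it, although the sort for GFP+ cells is meant to leave out cells in which Cre was not expressed. The summed level of 10 macrophage markers was 151 to 293 CPM in WT tumors against 63.5 to 172 CPM in WT glands and 152 to 418 CPM in KO tumors against 68.6 to 154 CPM in KO glands, and most of it was Cd14. In KO tumors 3 of the 10 were called higher (5.16% of all genes) and 0 lower, namely Cd14 (median 206 against 89.8 CPM in glands), C1qb (0.097 against 0.014 CPM) and C1qc (0.19 CPM against 0). In WT tumors Cd14 was called higher (231 against 66.3 CPM, 6.21% of all genes called higher) and Ptprc, Adgre1 and Lyz2 lower (9.53%). Of the 10, 6 had medians under 1 CPM in each group, and Adgre1, which defines macrophages, had medians of 0.12, 0.22, 0.13 and 0.11 CPM in WT tumors, WT glands, KO tumors and KO glands. The part of macrophages in the Abca1 difference was not tested.

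The 250 bases before the start of Abca1 (RefSeq, GRCm38.p6, chr4:53159896-53160145, minus strand, printed 5′ to 3′ along the gene) held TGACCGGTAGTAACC, 67 bases before the start, of a form at which LXR can bind, in capitals.
Abca1: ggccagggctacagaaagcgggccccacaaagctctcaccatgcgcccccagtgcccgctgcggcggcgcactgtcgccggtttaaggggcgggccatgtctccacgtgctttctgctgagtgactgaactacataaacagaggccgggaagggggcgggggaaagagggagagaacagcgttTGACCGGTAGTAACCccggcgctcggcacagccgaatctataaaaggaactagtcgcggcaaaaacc
The form with TGACC and TAACC at this spacing and any letters between, chosen after the sequence was seen and searched on both strands, was in 1 of the 24 promoters of the list and in 0.0481% of all genes. Its match in Abca1 was thus fixed in advance, and these shares are no test.

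Ch25h, which makes 25-hydroxycholesterol, was scarce, at 0.40, 1.92 and 4.37 CPM in WT tumors against 0.023, 0.31 and 4.0 CPM in WT glands, and at 0.55, 1.06 and 1.56 CPM in KO tumors against 0.098, 0.11 and 0.22 CPM in KO glands. All KO tumors lay above all KO glands, and the log2 difference was 2.89 (SE 0.62, adjusted p = 0.0015), while the WT difference of 1.23 (SE 0.48, adjusted p = 0.081) rested on groups that overlapped, with 1 WT gland of week 8 near the top of the tumor range. Its call was lost in 10 of 23 alternatives, over which the WT difference ran from 0.92 without the WT gland replicate 1 of week 8 to 2.52 without the WT gland replicate 2 of week 6. The WT gland replicates 2 of weeks 8 and 6 had the highest Ch25h of the WT glands, at 4.0 and 1.31 CPM. They also had the highest collagen markers of fibroblasts among all 33 libraries, with Col3a1 at 305 and 53.8 CPM. The WT tumor and KO gland replicates 1 of week 10, with Col3a1 at 32.4 and 30.4 CPM, had Ch25h at only 0.56 and 0.10 CPM. The part of fibroblasts in these Ch25h levels was not tested. Gm26902, which overlaps Ch25h on the opposite strand, was called higher in tumors as well (2.52 in WT and 3.79 in KO mice), at medians of 0.35 and 0.068 CPM in WT tumors and glands and of 0.26 CPM and 0 in KO tumors and glands, and without a known strand setting reads of this pair cannot be told apart. Mylip, the ubiquitin ligase that marks lipoprotein receptors for breakdown, was called in KO mice (0.94, SE 0.18, adjusted p = 0.00046), at 25.2, 42.4 and 56.2 CPM in tumors against 12.0, 23.6 and 27.1 CPM in glands. In WT mice its difference of 0.54 (adjusted p = 0.030) was under the fold threshold, at 29.1, 47.7 and 74.7 CPM in tumors against 22.7, 32.2 and 42.3 CPM in glands. Nr1h3, which encodes LXR alpha, was called in WT mice (0.96, SE 0.17, adjusted p = 0.00017), at 4.87, 6.32 and 8.20 CPM in tumors against 2.68, 3.52 and 7.75 CPM in glands, and not in KO mice (0.40), at 3.28, 6.83 and 10.0 CPM against 3.35, 4.93 and 8.47 CPM. Nr1h2, which encodes LXR beta, ranged from 50.6 to 97.1 CPM with differences of 0.00 and 0.20. Abcg1, a further efflux pump, ranged from 6.60 to 60.2 CPM with differences of 0.14 (SE 0.29) and 0.73 (SE 0.29, adjusted p = 0.11) and was not called. In the KO average Abcg1 was called by DESeq2, without the filter on low counts and with edgeR's own filter (adjusted p from 0.0083 to 0.081 in these 3, and from 0.11 to 0.15 in the 5 other alternatives that kept all KO libraries), and in 3 of the fits without 1 KO library.

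The same directions were looked for age by age, where 3 tumors were set against 2 glands of the same week. In WT mice 3 genes were called at week 6 (5.86% of all genes), with Dhcr7 (0.97) and Nr1h3 (0.92) higher (2.32% of all genes) and Sqle (-0.59) lower in tumors (3.53%). At WT week 8, 12 genes were called (9.19%), 9 lower (5.84%) and 3 higher (3.35%), and at WT week 10, 14 genes were called (6.13%), 13 lower (3.67%) and 1 higher (2.46%). Week 6 had the fewest calls of the list. In KO mice 13 genes were called at week 8 (2.49%), 12 lower (1.38%) and 1 higher (1.11%). At KO week 10, 8 were called (5.66%), 6 lower (3.09%) and 2 higher (2.57%), and at KO week 12, 15 were called (6.11%), 12 lower (2.92%) and 3 higher (3.19%). Sqle was called lower in all 6 comparisons, and Abca1 was called higher in all except WT week 6, where its difference was 1.80 (adjusted p = 0.11). Hmgcs1, Mvk, Mvd, Fdft1, Sqle, Lss and Tm7sf2 had every tumor below both glands at all 6 ages, as did 1.91% of all genes, and Abca1 had every tumor above both glands at all 6, as did 1.77%.

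**Figure D3:**
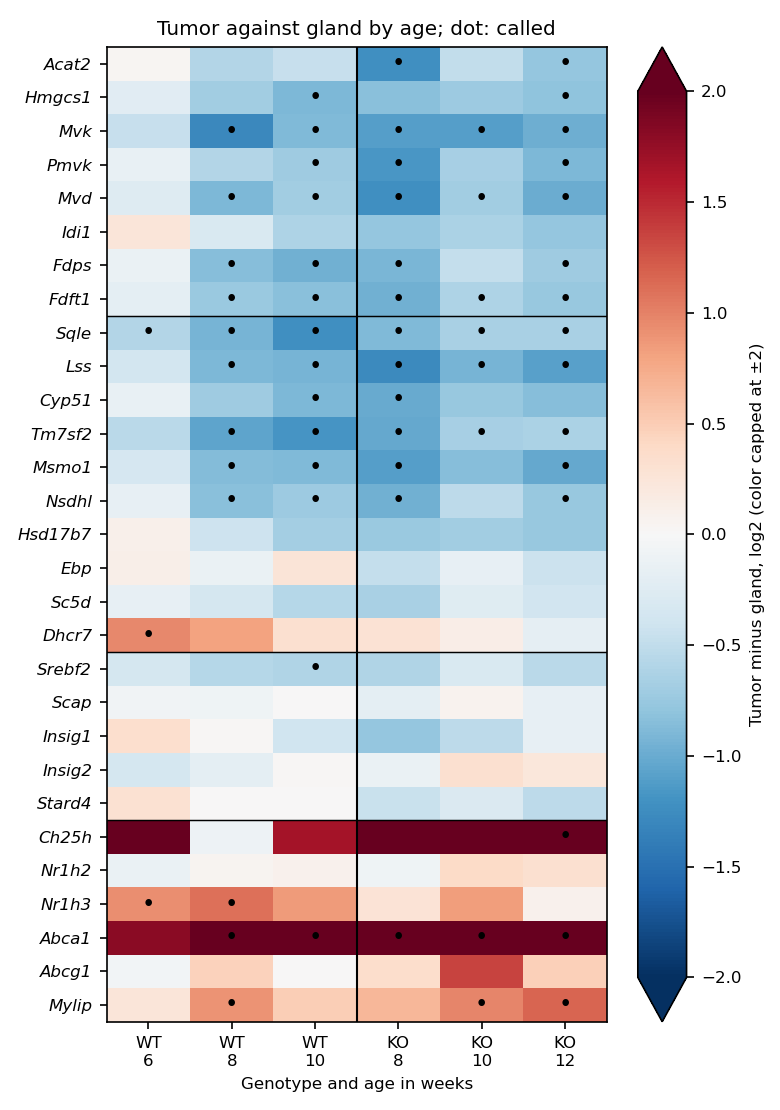
Log2 difference between tumor and gland of the same age for the 29 genes, with genotype and age in weeks as columns, blue for lower and red for higher in tumors. A dot marks a called gene. The column of WT week 6 is paler than the others, with 3 genes called, and the enzymes from Acat2 to Nsdhl are blue in the other 5.

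The single-age counts rested on few mice. Without 1 library they ranged from 0 to 3 genes at WT week 6 and from 4 to 12 at WT week 8, where the lowest came without the WT gland replicate 1 of that age. At WT week 10 they ranged from 2 to 13 and fell to 2 and 6 without its WT gland replicate 1 and its WT tumor replicate 1. At KO week 8 they ranged from 0 to 11, with 0 without the KO gland replicate 1, and at KO week 10 from 0 to 11, with 0 without the KO gland replicate 2 and 4 without KO tumor replicate 2 or 3. At KO week 12 they ranged from 5 to 19, with 5 and 6 without KO tumor replicates 3 and 2 and 6 and 7 without KO gland replicates 1 and 2. In these fits the share of all genes called ranged from 1.37% to 4.99%, 6.11% to 7.06% and 3.35% to 6.43% at WT weeks 6, 8 and 10, and from 0.125% to 2.63%, 1.90% to 5.43% and 3.97% to 7.88% at KO weeks 8, 10 and 12. Fits on the 5 libraries of 1 age alone called 3 genes at WT week 10 (4.13% of all genes in that fit), 20 at KO week 8 (6%), 13 at KO week 10 (13.3%) and 0 at KO week 12 (0%).

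How far the enzymes of 1 mouse were high or low together differed between conditions. The summed level of the 18 enzymes was 858, 1476 and 1808 CPM (lowest, median, highest) in WT tumors against 1540, 2328 and 3245 CPM in WT glands, and 1201, 1476 and 1994 CPM in KO tumors against 1577, 2520 and 3440 CPM in KO glands. In the 6 tumor conditions with 3 mice, the mouse that was most often the lowest was so for 9 to 15 of the 18 enzymes, and in the 7 gland conditions with 2 mice the mouse that was more often the lower was so for 14 to 18. The fewest were at WT week 6, where tumor replicate 2 was the lowest for 9 and the highest for 6 enzymes and replicate 3 the highest for 11 and the lowest for 7. At the other end, the WT tumor replicate 1 of week 10 was the lowest of its 3 mice for 15 of the 18 enzymes, and the KO tumor replicate 1 of week 12 was the highest of its 3 for 15 of 18. Of the 2 WT glands of week 10, replicate 2 was lower for 18 of 18, and of the 2 KO glands of week 10, replicate 1 was lower for 17 of 18. In 5 of the 6 tumor conditions with 3 mice, the mouse with the highest mean log2 level of the enzymes had the lowest Abca1, and in 4 of 6 the mouse with the lowest enzymes had the highest. The WT tumor replicate 1 of week 10 had the lowest enzyme sum (858 CPM) and the highest Abca1 (450 CPM) of all tumors. It also had the highest Col1a1, Col1a2 and Col3a1 of all tumors (29.2, 45.8 and 32.4 CPM), though not the highest Postn (640 CPM). The WT gland replicate 2 of week 8, with collagens higher still, had Abca1 at 74.1 CPM, the highest of the WT glands. The part of fibroblasts in these Abca1 levels was not tested. In glands the mouse with the higher enzymes had the lower Abca1 in 4 of 7 conditions of 2 mice.

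**Figure D4:**
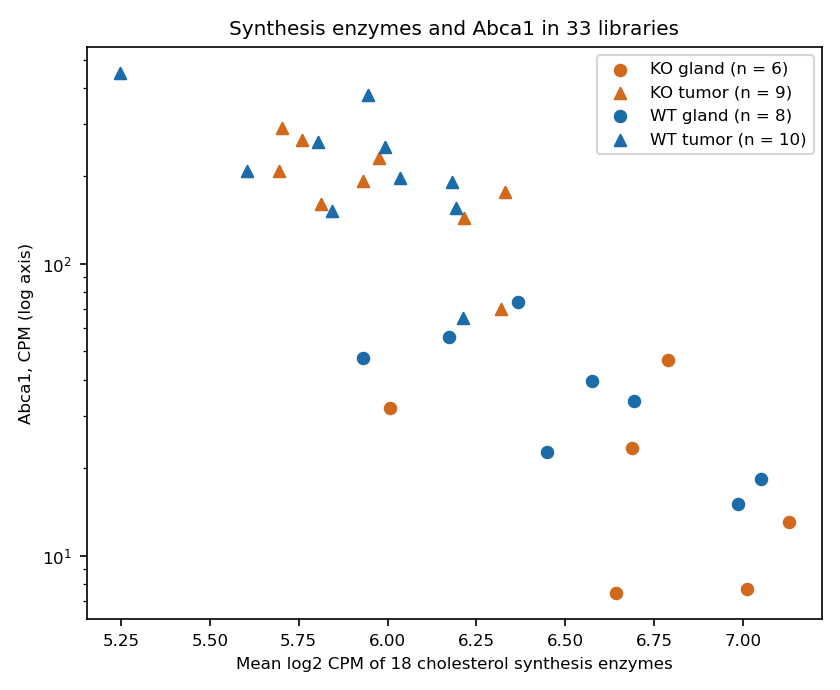
Level of Abca1 in CPM (log axis) against the mean log2 CPM of the 18 synthesis enzymes, 1 point for each of the 33 libraries. Tumors (triangles) lie at the upper left and glands (circles) at the lower right, described without a test since all levels of 1 library share its depth and scaling.

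Whether the loss of PTHrP changed these genes was asked in 3 ways. In tumors of weeks 8 and 10, WT minus KO, 0 of 29 genes were called by edgeR (0.512% of all genes) and 0 by DESeq2, while 7 had an unadjusted p under 0.05 (10.9% of all genes did). The nearest was Srebf2, lower in WT tumors by a log2 difference of -0.44 (95% interval -0.68 to -0.20, adjusted p = 0.14). WT tumors of weeks 8 and 10 were at 118 ± 7.15 and 107 ± 22.9 CPM of Srebf2 (SD, n = 3 each), and KO tumors at 161 ± 43.9 and 144 ± 11.3 CPM (SD, n = 3 each). The ranges overlapped at week 8 (110 to 123 CPM in WT, 112 to 197 CPM in KO) and not at week 10 (82.6 to 128 CPM in WT, 132 to 154 CPM in KO). For Sqle the difference was -0.28 (95% interval -0.49 to -0.07), for Hmgcs1 -0.28 (-0.60 to 0.05) and for Abca1 0.49 (-0.23 to 1.20). Without the KO tumor replicate 1 of week 8 there were 2 calls (1.62% of all genes).

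In tumor-free glands of weeks 8, 10 and 12, WT minus KO, 1 of 29 genes was called, lower in WT (0.906% of all genes were called, 0.402% lower and 0.504% higher), and 6 had an unadjusted p under 0.05, as did 12.4% of all genes. Here the median of all genes stood at 0.14 on the log2 scale, and the differences are relative to TMM scaling. Dhcr7 was lower in WT glands by a log2 difference of -0.71 (SE 0.19, adjusted p = 0.083). WT glands were at 38.9 ± 6.94, 43.3 ± 7.79 and 73.1 ± 1.27 CPM at weeks 8, 10 and 12, and KO glands at 79.4 ± 27.3, 69.0 ± 4.87 and 99.2 ± 41.8 CPM (SD, n = 2 each). Both WT glands lay below both KO glands at weeks 8 and 10, while at week 12 the WT glands (72.2 and 74.0 CPM) lay between the KO glands (69.7 and 129 CPM). This call was lost with the ribosomal RNA share as a covariate (log2 difference -0.33, adjusted p = 0.66) and in 9 of 12 fits that left out 1 library, and without the KO gland replicate 1 of week 12 there were 5 calls (2.13% of all genes). DESeq2 called 2 genes, Dhcr7 and Stard4 (4.09% of all genes to which it gave an adjusted p). In edgeR Stard4 (-0.64, adjusted p = 0.17) and Mylip (0.56, adjusted p = 0.20) came next and were not called.

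The tumor effect itself was compared between genotypes at matched stages, as the WT average minus the KO average of the differences above, and these share their samples with those averages. Again 0 of 29 genes were called by edgeR (0.14% of all genes) and 0 by DESeq2, and 9 had an unadjusted p under 0.05, as did 10.4% of all genes. Ebp was nearest, with a tumor effect higher in WT by 0.44 (95% interval 0.22 to 0.66, adjusted p = 0.14). The WT minus KO difference of the tumor effect was positive for all 8 genes from acetyl-CoA to squalene, from 0.05 to 0.50, where both effects were negative, and for 8 of the 10 later enzymes. Of these 8, Dhcr7 had a positive effect in both genotypes and Ebp in WT mice. For Dhcr7 the difference was 0.61 (0.14 to 1.09, adjusted p = 0.36) and for Abca1 -0.97 (-1.90 to -0.04, adjusted p = 0.49), so the larger Abca1 effect of KO mice was not called different. Without the KO gland replicate 1 of week 12 there were 2 calls (1.76% of all genes), and without the WT gland replicate 1 of week 10 there was 1 (1.6%).

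From hyperplasia to carcinoma in WT tumors, week 10 minus week 6, 0 of 29 genes were called by edgeR (0.011% of all genes), although 16 had an unadjusted p under 0.05, as did 8.55% of all genes. The differences of the 18 enzymes ran from -0.97 (Idi1) to 0.08 (Ebp), and 17 were negative. Insig1 fell short of a call at -0.92 (SE 0.23, adjusted p = 0.39), as did Tm7sf2 at -0.67 (SE 0.17, adjusted p = 0.39). Sqle was at 173 ± 9.49 CPM at week 6, 137 ± 16.4 CPM at week 8 and 118 ± 23.8 CPM at week 10 (SD, n = 3 each), and the 1 mouse of week 12 was at 199 CPM, above them all. DESeq2 called 8 genes lower at week 10, namely Mvk, Idi1, Fdps, Fdft1, Cyp51, Tm7sf2, Msmo1 and Insig1 (1.66% of all genes to which it gave an adjusted p were called), and edgeR without the filter on low counts called 7 (0.889% of all genes). Without the WT tumor replicate 3 of week 10, 9 genes were called (1.03%). In KO tumors, week 12 minus week 8, 0 of 29 genes were called by edgeR (0% of all genes) and 0 by DESeq2, and 3 had an unadjusted p under 0.05, as did 7.88% of all genes.

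Of 38 other genes of sterol, isoprenoid and lipid handling, 2 were called higher (6.21% of all genes) and 4 lower (9.53%) in WT tumors on average, and 3 higher (5.16%) and 8 lower (5.44%) in KO tumors, with medians of 0.00 and -0.05 on the log2 scale. The WT total of 6 of 38 was at the share of all genes (15.7%) and is no result about these genes. Srebf1, which encodes the fatty acid branch of the SREBP factors and is an LXR target, was higher in both genotypes (0.77 and 0.93), as was Gramd1b, which moves cholesterol from the plasma membrane (0.63 and 1.00). Gramd1a was higher in KO mice (0.60). Soat1, which esterifies cholesterol, was lower in both (-1.11 and -0.64), as were Lrp8, a lipoprotein receptor of neurons and other cells (-0.72 and -0.98), and Cyp7b1, an oxysterol hydroxylase (-1.29 and -1.63). Cyp27a1, which makes 27-hydroxycholesterol, was lower in WT mice (-1.08). Lower in KO mice alone by the call were Aacs (-0.63), Acss2 (-1.11), Elovl6 (-0.87), Fads1 (-0.69) and Tmem97 (-0.64) (a call in KO and not in WT mice is no test of the genotypes). Between genotypes, 0 of the 38 were called in tumors (0.512% of all genes) or in the tumor effect (0.14%). In glands Hsd3b7 (0.68, adjusted p = 0.035) was higher (0.504% of all genes) and Elovl6 (-0.73, adjusted p = 0.061) and Erlin1 (-0.67, adjusted p = 0.019) were lower (0.402%) in WT than in KO, and all 3 calls were lost with the ribosomal RNA share as a covariate (adjusted p = 0.25, 0.41 and 0.28) and in 5, 8 and 2 of 12 fits without 1 library.

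Some of these genes overlap others, and the strand setting of the read counting was not given in the sources used here. Among the genes called in an average, Fdft1 overlaps Ctsb, Cyp51 overlaps Akap9, Lss overlaps 4930483K19Rik, Hmgcs1 overlaps Gm48342, Mvd overlaps Gm20388, Idi1 overlaps Gm48574, Ch25h overlaps Gm26902 and Nr1h3 overlaps Gm23390 on the opposite strand. On the same strand, Tm7sf2 overlaps Vps51, Fdps overlaps Gm43738 and Gm22935, and Nr1h3 overlaps Gm13783, and reads of such pairs may be split or dropped. Sqle, Mvk, Msmo1, Pmvk, Dhcr7, Mylip and Abca1 overlap no other gene in the annotation.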

How the data were processed

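RNAseq was made from GFP+ mammary cells of 33 mice. Per the labels and the study's methods, the authors aligned reads with HISAT to GRCm38, removed duplicates with Picard (version 1.128) and counted reads per gene with HTSeq, and the deposited table holds raw counts. Strand use in counting was not given in the sources used here. A further deposited table of counts divided by a size factor per library was not used. Rows of the reporter and of spike-ins (111, with 0.0778% of reads) were left out.

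Here 36527 of 55487 genes with at least 10 reads over all libraries were fitted in edgeR 4.0.16 (R 4.3.3) with TMM normalization, quasi-likelihood tests, 1 coefficient per genotype, tissue and week, and no covariate. Genes were called by the study's thresholds, a fold over 1.5 with p adjusted by Benjamini-Hochberg under 0.1. CPM are reads relative to the library total after TMM scaling. Averages weight 3 weeks equally. Standard errors were derived from the log2 difference and the F statistic of its test. The 95% intervals are normal intervals from these errors and leave out the degrees of freedom of the test. Groups came from the labels. Replicates were separate mice, and no pair of libraries within a condition agreed within sampling noise (lowest chi-square per degree of freedom 37.4). Sharing a replicate number did not pair the mice: over 30 pairs the correlation of deviations ran from -0.31 to 0.19, with 2 over 0.1. DESeq2 1.42.0, other filters and scaling, a replicate block, the ribosomal RNA share as a covariate, fits on fewer conditions and fits without each of 32 libraries were tried. The fits without 1 library kept the dispersion trend of the full fit. All 29 genes are named, and those called in an average or between genotypes have levels by group. The 29 genes, the lists and the tests were chosen with earlier results of these data known. No other sample columns were present (0).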

Additional observations from a re-analysis of the deposited data

Results flagged for a closer look

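Dixon's test was run on the log level of each of the 29 genes in each group of genotype and tissue. It covered 116 groups and marked 14, where chance marks about 1 in 20 (5%). Log values make a low mouse stand out more, and a high mouse less, than the CPM given below. All 14 were the lowest mouse of their group. Ages are mixed within these groups.

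The WT tumor replicate 1 of week 10 stood apart in 6 genes, with Hmgcs1 at 121.5 CPM, Cyp51 at 75.5 CPM, Hsd17b7 at 23.4 CPM, Dhcr7 at 36.5 CPM, Srebf2 at 82.6 CPM and Stard4 at 14.0 CPM, against group medians of 235, 180, 55.7, 69.2, 125 and 22.2 CPM. It was also the WT tumor with the highest Abca1. The KO tumor replicate 1 of week 12, which had the highest enzymes of its age, stood apart in the genes of LXR and efflux, with Abca1 at 70.0 CPM, Abcg1 at 15.5 CPM and Nr1h3 at 3.28 CPM, against medians of 193, 39.7 and 6.83 CPM.

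Among glands, the KO gland replicate 1 of week 10 stood apart in Pmvk at 22.8 CPM, Nsdhl at 48.3 CPM and Hsd17b7 at 58.6 CPM, against medians of 54.0, 91.9 and 99.4 CPM. The WT gland replicate 1 of week 6 had Abcg1 at 15.2 CPM (median 35.0 CPM), and the KO gland replicate 2 of week 12 had Mylip at 12.0 CPM (median 23.6 CPM). The ribosomal RNA share was 0.0360% in that WT tumor, 0.743% in that KO tumor, 8.04% in that KO gland of week 10, 0.0072% in that WT gland and 18.8% in that KO gland of week 12, the highest of the 33 libraries.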

How the results depend on the processing

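Over the 13 comparisons, 98 calls of a gene were made. None reversed under an alternative, 28 were kept under every alternative and 70 lost the call under at least 1. The 28 lay in the WT and KO averages and at WT weeks 8 and 10. Without the filter on low counts the number of genes called moved to 5 at WT week 6, 14 at KO week 10, 2 between glands and 7 in WT tumors from week 6 to 10. With DESeq2 these were 5, 15, 2 and 8. With filterByExpr it was 13 at KO week 10. On the compared conditions alone it was 3 at WT week 10, 20 at KO week 8, 13 at KO week 10, 0 at KO week 12 and 0 between glands. With the ribosomal RNA share as a covariate it was 0 between glands. With the replicate number as a block it was 9 of 14 at WT week 10, and the block moved no other count by over 1.5 times, though the numbers do not pair the mice.

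Without 1 library the counts ran from 0 to 3 (WT week 6), 4 to 12 (WT week 8), 2 to 13 (WT week 10), 0 to 11 (KO week 8), 0 to 11 (KO week 10), 5 to 19 (KO week 12), 7 to 16 (WT average), 16 to 20 (KO average), 0 to 2 (tumor effect, WT minus KO), 0 to 2 (tumors, WT minus KO), 0 to 5 (glands, WT minus KO), 0 to 9 (WT tumors, week 10 minus week 6) and 0 to 0 (KO tumors, week 12 minus week 8). The share of all genes called moved in these fits too, over the ranges given above for the single ages and the averages. WT week 12 tumors, with 1 mouse, entered no comparison. Low counts limit Ch25h most, which had as few as 1 read, and intervals cover these mice only.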
